A study of Rattus norvegicus with 25 samples.

Results

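The 10 genes described here encode chemokines and acute inflammatory proteins: Cxcl1, Cxcl2, Ccl2, Il1b, Il6, S100a8, S100a9, Lcn2, Ptgs2 and Icam1. They are 10 of the 32883 rat Ensembl gene IDs in the deposited count table, and their symbols came with the definition of the set, since the table itself holds IDs only. The set was named by function, but selected on earlier results of these libraries, above all the high counts in the alimentary limb after gastric bypass. Values of that limb against sham jejunum are therefore given as a description, without a test.

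The libraries are of total RNA from intestine of rats that had undergone gastric bypass of the Roux-en-Y type (RYGB), which connects a small stomach pouch to the jejunum, or a sham operation. A first cohort, whose strain and age the labels do not give, had 3 libraries in each of 4 groups: alimentary limb (RYGB_AL, the limb that receives food from the pouch), common limb (RYGB_CL, the segment beyond the junction with the biliopancreatic limb), sham jejunum (Sham_JEJU) and sham ileum (Sham_IL). The second cohort was of Otsuka Long-Evans Tokushima Fatty (OLETF) rats, an obese and diabetic strain, and had RYGB sections labelled glucotonic (Glucotonic_OLE, 4 label numbers in 5 libraries) or non-glucotonic (Nonglucotonic_OLE, 4 label numbers in 5 libraries), and sham distal intestine (Sham_OLE, 3 label numbers). All groups are bulk tissue, so fewer cells of a type and less RNA per cell cannot be told apart.

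Cxcl1 and Cxcl2 are chemokines that attract neutrophils through the receptor Cxcr2, and Ccl2 attracts monocytes through Ccr2. S100a8 and S100a9 form calprotectin, an abundant protein of the neutrophil cytoplasm, and Lcn2 withholds iron from bacteria by binding their siderophores. Il1b and Il6 are cytokines of the acute response, Ptgs2 is the inducible cyclooxygenase of prostaglandin synthesis, and Icam1 is the endothelial and epithelial receptor to which leukocytes adhere. Many of these genes are switched on by the transcription factor NF-kB when tissue is injured or meets bacteria.

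Promoters of 8 of the 10 members were found by symbol in RefSeq sequences of build GRCr8, and those of S100a8 and Ccl2 were not among them. The NF-kB consensus, searched on both strands of the 250 bases before each annotated start, matched in 4 of the 8, namely Cxcl1, Cxcl2, Il6 and Lcn2, and in 3.54% of all 33469 promoters of that table. The consensus was chosen after these sequences had been seen. A looser form of the motif, which fixes only its leading G bases and its last C bases and contains every match of the consensus, was found in 6 of the 8 and in 42.3% of all promoters. The cyclic AMP element TGACGTCA matched only in Il6 of the 8 and in 1.59% of all, and the AP-1 site TGAGTCA matched in none of the 8 and in 4.05% of all. A match describes letters only and is no evidence of binding. The 150 bases before the start are shown for the pair of neutrophil chemokines and Il6, which hold the consensus near the start, and for Ptgs2, which was the member with the largest log2 change in glucotonic OLETF sections and does not hold it. Capitals mark the consensus matches, including overlapping ones. The windows are chr14:17479322-17479471 (minus strand) for Cxcl1, chr14:17467256-17467405 (minus strand) for Cxcl2, chr4:5894576-5894725 (minus strand) for Il6 and chr13:64713913-64714062 (plus strand) for Ptgs2, each printed 5′ to 3′ towards the gene.
Cxcl1: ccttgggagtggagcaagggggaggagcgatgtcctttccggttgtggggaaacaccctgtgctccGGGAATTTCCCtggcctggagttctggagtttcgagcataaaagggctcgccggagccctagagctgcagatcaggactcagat
Cxcl2: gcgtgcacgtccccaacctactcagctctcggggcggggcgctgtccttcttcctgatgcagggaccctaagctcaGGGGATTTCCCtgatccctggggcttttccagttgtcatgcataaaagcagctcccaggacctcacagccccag
Il6: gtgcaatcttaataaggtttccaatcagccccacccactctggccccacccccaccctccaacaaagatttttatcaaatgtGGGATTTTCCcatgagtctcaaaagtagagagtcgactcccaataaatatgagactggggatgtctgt
Ptgs2: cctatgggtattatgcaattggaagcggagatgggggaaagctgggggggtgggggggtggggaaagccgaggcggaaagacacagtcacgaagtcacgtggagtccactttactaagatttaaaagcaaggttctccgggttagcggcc
Cxcl1 and Cxcl2 lie next to each other on chromosome 14 of GRCr8 with 0 annotated genes between them, and so do S100a8 and S100a9 on chromosome 2.

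First-cohort libraries totalled 23.7 to 49.3 M counts (M, mega) and OLETF libraries 18.1 to 25.6 M. In the OLETF libraries 2 IDs took so large a share that 8.48 to 12.8 M counts were left for all other IDs. Levels are given as CPM (counts per M counts of the library), scaled within each cohort, and are not compared across cohorts or between genes. The OLETF sections with label number 19 deviated together from their groups (r = 0.811 across IDs), so results against Sham_OLE are given with and without it. No tissue or leukocyte marker other than the members could be matched to an ID, so the tissue labels were not checked and the part that a different number of neutrophils or monocytes has in any value below was not tested.

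In the alimentary limb every member was higher than in sham jejunum, where Cxcl1, Cxcl2, Il6, S100a8, S100a9 and Lcn2 had few counts. Cxcl1 (ENSRNOG00000002802) was at 3.50, 46.1 and 12.3 CPM in RYGB_AL 1-1, 2-3 and 15-29, against 0.368, 0.0366 and 0.593 CPM in Sham_JEJU 8-15, 14-28 and 15-30. For Cxcl2 (ENSRNOG00000002792) the same RYGB_AL libraries held 0.770, 29.9 and 4.76 CPM, and the Sham_JEJU libraries held 3 counts together, all in 15-30. The ratio of summed counts for Cxcl2 was 465, with counting error alone allowing 159 to 2258 (95%). Both chemokines were at or near 0 in sham jejunum, and each alimentary library lay above all sham values, with a wide spread among the alimentary libraries.

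S100a8 (ENSRNOG00000011557), the smaller calprotectin subunit, was read 79, 820 and 350 times in RYGB_AL 1-1, 2-3 and 15-29 (2.34, 19.9 and 10.95 CPM), and 7, 0 and 0 times in Sham_JEJU 8-15, 14-28 and 15-30. Its partner S100a9 (ENSRNOG00000011483) was at 5.81, 62.7 and 24.4 CPM in RYGB_AL and at 0.631, 0 and 0.198 CPM in Sham_JEJU. The log2 change was 7.33 (SE 1.20) for S100a8 and 6.72 (SE 1.22) for S100a9. Neither subunit's groups overlapped, and the lowest alimentary library of S100a9 held 196 counts against 32 in all 3 sham jejunum libraries. Lcn2 (ENSRNOG00000013973), the siderophore-binding protein, remained a low-count gene: 6, 18 and 62 counts in RYGB_AL 1-1, 2-3 and 15-29, against 0, 0 and 4 in Sham_JEJU. It was the one member whose highest library was RYGB_AL 15-29 and not 2-3.

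Among the cytokines, Il1b (ENSRNOG00000004649) was at 13.9, 82.6 and 28.7 CPM in RYGB_AL 1-1, 2-3 and 15-29 and at 5.29, 1.39 and 7.41 CPM in Sham_JEJU 8-15, 14-28 and 15-30. This is a log2 change of 3.14 (SE 0.87), and sham jejunum already held 539 Il1b counts. Il6 (ENSRNOG00000010278) was counted 6, 80 and 231 times in RYGB_AL 1-1, 15-29 and 2-3 and 2 times in all of Sham_JEJU, a ratio of 157 (43.1 to 1302 at 95%, counting error only). Its level in RYGB_AL 1-1 was 0.178 CPM, below the 0.188 CPM of RYGB_CL 1-1, so the high Il6 values belong to 2 of the 3 alimentary libraries. Il6 did not pass the low-count filter in either cohort and was not fitted.

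Ccl2 (ENSRNOG00000007159), the monocyte chemokine, was at 4.83, 21.0 and 5.70 CPM in RYGB_AL 1-1, 2-3 and 15-29, against 0.342, 1.13 and 1.53 CPM in Sham_JEJU 8-15, 14-28 and 15-30. Ptgs2 (ENSRNOG00000002525), the inducible cyclooxygenase, was at 22.05, 103.6 and 38.7 CPM in RYGB_AL and at 6.47, 2.64 and 5.65 CPM in Sham_JEJU. The log2 changes were 3.39 (SE 0.76) for Ccl2 and 3.47 (SE 0.57) for Ptgs2, and in both the groups did not overlap. Icam1 (ENSRNOG00000020679), the leukocyte adhesion receptor, was the most even of the set: 34.2, 55.8 and 46.7 CPM in RYGB_AL against 9.81, 9.26 and 9.83 CPM in Sham_JEJU, a log2 change of 2.24 (SE 0.37).

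Over the set, all 3 RYGB_AL libraries lay above all 3 Sham_JEJU libraries for each of the 9 members that passed the low-count filter, and also for Il6. Among all 16146 IDs tested, 13.4% lay so. This describes the choice of the set, and nothing is read from it.

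**Figure D1:**
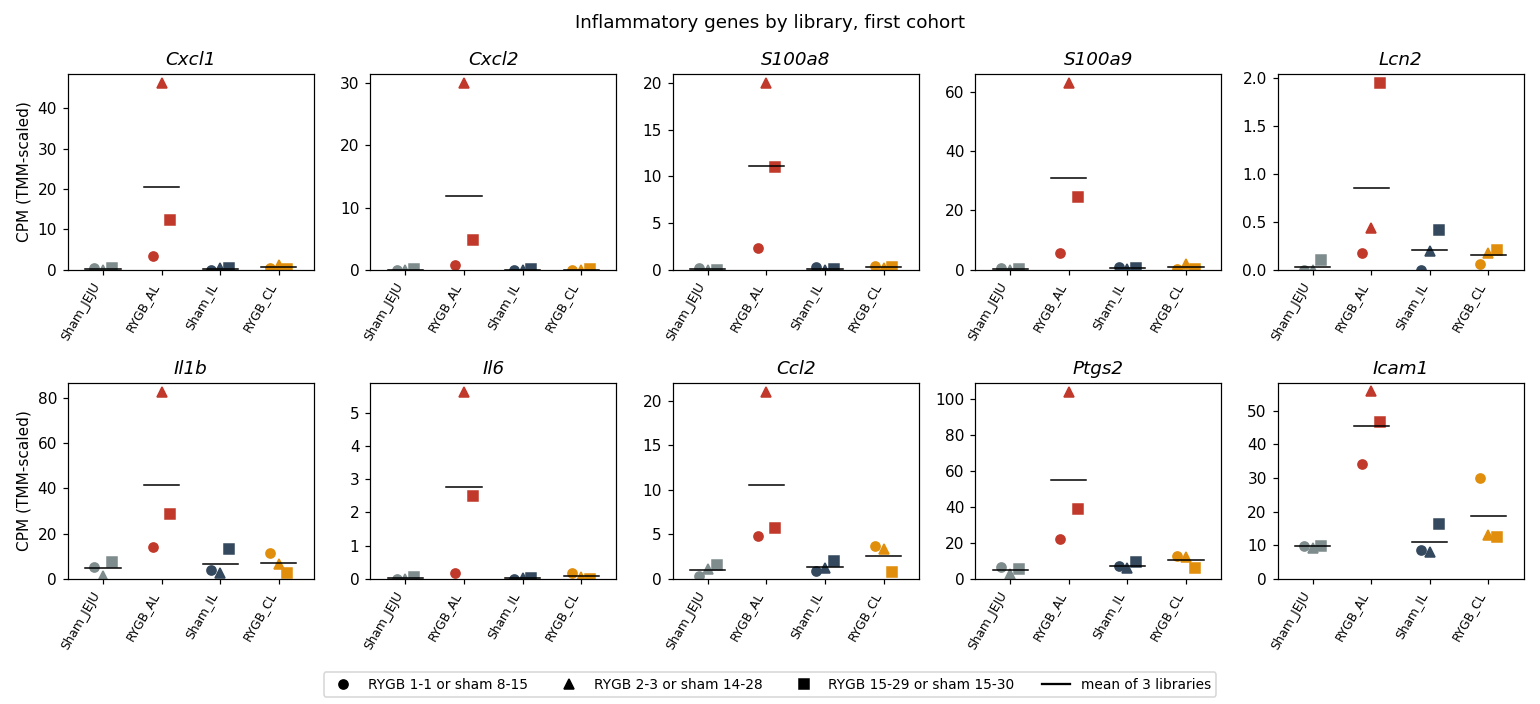
Level of each member in CPM on TMM-scaled libraries (y axis, linear, own scale per gene) in the 12 libraries of the first cohort, by group (x axis), with a line at the mean of 3 libraries and marker shapes for the label numbers. RYGB_AL 2-3 is the highest library for 9 of the 10 genes, and the common limb and both sham groups overlap in most panels.

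The alimentary libraries kept one order in most members. Library 2-3 was highest, 15-29 next and 1-1 lowest in 9 of the 10 members, and in Lcn2 15-29 came before 2-3. The share of all IDs with that order is not given here, so the order is not read as a trait of the set. The distance between 2-3 and 1-1 was widest for Cxcl2 (38.8-fold) and Il6 (31.6-fold, on 6 counts in 1-1), 13.2-fold for Cxcl1, 10.8-fold for S100a9, 8.51-fold for S100a8, 5.93-fold for Il1b, 4.70-fold for Ptgs2 and 4.35-fold for Ccl2. For Icam1 it was 1.63-fold. Without library 2-3 the log2 change against Sham_JEJU was 6.43 in place of 8.55 for Cxcl2, 4.47 in place of 5.88 for Cxcl1, 5.66 in place of 6.72 for S100a9, 6.57 in place of 7.33 for S100a8, 2.36 in place of 3.39 for Ccl2, 2.14 in place of 3.14 for Il1b and 2.59 in place of 3.47 for Ptgs2. Some values also rested on a single sham library: without Sham_JEJU 8-15 the fitted change of S100a8 was 11.5 and that of S100a9 8.06, and without 15-30 that of Cxcl2 was 11.6 and that of Lcn2 7.78, since the remaining sham libraries then held few or no counts. Lcn2 was at 2.97 without RYGB_AL 15-29.

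Across the 12 libraries of the first cohort, the likeness of the profiles was measured as the root mean square difference of z-scored log2 CPM, where 0 means identical shape. The closest members were S100a9 and Ptgs2 (0.290), Cxcl1 and Ptgs2 (0.295), Il1b and Ptgs2 (0.322), S100a8 and S100a9 (0.331) and Cxcl1 and Cxcl2 (0.347). Outside the set, the ID most like Cxcl2 was ENSRNOG00000000827 (0.195), with a mean of 34.2 CPM in RYGB_AL and 12.1 CPM in the other libraries, and the ID most like S100a9 was ENSRNOG00000018109 (0.252), with means of 43.9 and 22.5 CPM. Neither ID could be given a name. The measure compares shape and not size, and all profiles share the same libraries and depths. The RYGB_AL libraries, whose high counts guided the choice of the set, are among them. Likeness between members therefore partly describes that choice.

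Beyond the junction, in the common limb, no member was shown to differ from sham ileum. Of the 9 members in the first-cohort fit, 6 also pass the low-count filter on the RYGB_CL and Sham_IL libraries alone: Cxcl1, Ccl2, Il1b, S100a9, Ptgs2 and Icam1. Cxcl2, S100a8 and Lcn2 were in the fit only through their counts in other groups, and they bear little on this comparison. None of the 6 passed the test against Sham_IL (edgeR, adjusted p under 0.05, as for 0% of all 16146 IDs). At an unadjusted p under 0.05 the count was also 0, where 7.85% of all IDs passed, and DESeq2, which called 0.576% of all IDs, called 0 of the 6. On simulated counts this comparison found 29% of 2-fold changes, so differences of that size could be missed. The SE of the log2 change was 1.11 for Cxcl1, 1.07 for S100a9 and 0.82 for Il1b, so in these members larger differences could be missed too. The groups overlapped for each of the 6, and also for Cxcl2, S100a8, Lcn2 and Il6, whose few counts could hardly separate them. Of all tested IDs, 9.34% were higher and 6.73% lower without overlap, so overlap was the common outcome.

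Icam1 came closest, with 30.1, 12.997 and 12.6 CPM in RYGB_CL 1-1, 2-3 and 15-29 and 8.55, 7.84 and 16.4 CPM in Sham_IL 8-15, 14-28 and 15-30. Its log2 change was 0.76 (SE 0.36, edgeR adjusted p = 0.641), and Sham_IL 15-30 lay above 2 of the RYGB_CL libraries. Ccl2 was at 3.69, 3.36 and 0.810 CPM in RYGB_CL and at 0.892, 1.21 and 1.95 CPM in Sham_IL (log2 change 0.96, SE 0.71, edgeR adjusted p = 0.738). Ptgs2 was at 12.8, 12.2 and 5.95 CPM in RYGB_CL and at 6.99, 5.89 and 9.29 CPM in Sham_IL (log2 change 0.48, SE 0.52, edgeR adjusted p = 0.810). In both genes RYGB_CL 15-29 was the lowest common limb library and lay within the range of sham ileum or below it.

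The members with few counts in sham jejunum also had few counts in the common limb and sham ileum. S100a8 had 28 counts over the 3 RYGB_CL libraries and 11 over Sham_IL, S100a9 had 99 and 55, Cxcl1 had 66 and 24, Cxcl2 had 4 and 2, Lcn2 had 15 and 18 and Il6 had 8 and 2. Of the 99 S100a9 counts, 78 came from RYGB_CL 2-3, the label number that was also highest in the alimentary limb. Without that library its log2 change of 0.49 (SE 1.07, edgeR adjusted p = 0.915) became -0.89. Il1b was level, at 6.90 ± 4.39 CPM in RYGB_CL and 6.49 ± 5.69 CPM in Sham_IL (SD, n = 3 each; log2 change 0.09, SE 0.82, adjusted p = 0.982 by edgeR).

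Set against the alimentary limb of the same RYGB numbers, the common limb was lower in 8 of the 10 members without overlap of the libraries, where 16.9% of all 16146 tested IDs were so. Il6 and Lcn2 overlapped. Within each of the shared label numbers 1-1, 2-3 and 15-29, 9 of the 10 members were lower in the common limb, Lcn2 among them (0.0626 against 0.178, 0.177 against 0.437 and 0.211 against 1.94 CPM). Of all tested IDs 25.1% were lower in all 3 numbers. Il6 was lower in 2 of the 3. The log2 difference ran from -1.30 (SE 0.36) for Icam1 to -8.06 (SE 1.45) for Cxcl2. This contrast uses the alimentary libraries and was not tested for the members. Since the set was selected above all on high alimentary counts, these values describe that choice, and nothing is read from them. Between sham ileum and sham jejunum all 10 members overlapped, with few counts for Cxcl2, Il6, S100a8 and Lcn2. Of all IDs, 17.4% were higher and 17.8% lower in ileum without overlap. The means of Cxcl1, for example, were 20.6 ± 22.5 CPM in RYGB_AL, 0.597 ± 0.554 in RYGB_CL, 0.332 ± 0.280 in Sham_JEJU and 0.274 ± 0.173 in Sham_IL (SD, n = 3 each), and only RYGB_AL lay apart from its neighbours in that order. Icam1 had the same order of means for the limbs, 45.6 ± 10.9 CPM in RYGB_AL and 18.6 ± 9.99 in RYGB_CL, above 10.9 ± 4.76 in Sham_IL and 9.63 ± 0.321 in Sham_JEJU, and each of the last 3 groups overlapped its neighbour in that order.

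In OLETF rats, glucotonic sections of numbers 13, 16 and 18 held more Ptgs2, Ccl2 and Cxcl1 than any sham section, while S100a8, Il6 and Lcn2 had almost no counts in any OLETF group. For Ptgs2, Ccl2 and Cxcl1 the glucotonic section of number 19 lay within the sham range or below it. With all 4 numbers, none of the 5 fitted members (Ptgs2, Ccl2, Cxcl1, Icam1 and Il1b) passed the test against Sham_OLE (edgeR, adjusted p under 0.05, passed by 0.0345% of 14495 IDs). At an unadjusted p under 0.05, 3 of the 5 passed, where 16.4% of all IDs did, and DESeq2, which called 3.61% of all IDs, called 1 of the 5, Ccl2. DESeq2 gave no adjusted p for Cxcl1, which it therefore could not call.

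Ptgs2 was at 51.2, 77.0, 64.9 and 6.53 CPM in Glucotonic_OLE 13, 16, 18 and 19, against 2.20, 8.75 and 13.3 CPM in Sham_OLE 4, 22 and 23. The log2 change was 2.63 (SE 0.89, edgeR adjusted p = 0.198). Numbers 13, 16 and 18 lay far above every sham value, and number 19 lay between Sham_OLE 4 and 22. Without number 19 in either kind of section, the log2 change was 2.99 (SE 0.61, edgeR adjusted p = 0.0222).

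Ccl2 behaved alike, at 17.1, 11.1, 17.7 and 1.15 CPM in Glucotonic_OLE 13, 16, 18 and 19 and at 1.54, 2.26 and 3.61 CPM in Sham_OLE 4, 22 and 23. Its log2 change was 2.26 (SE 0.84, edgeR adjusted p = 0.233; DESeq2 adjusted p = 0.0497), and 2.63 without number 19 (SE 0.43, edgeR adjusted p = 0.0116). Number 19 lay below all 3 sham values.

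Cxcl1 was low throughout, with 45, 24, 22 and 3 counts in Glucotonic_OLE 13, 16, 18 and 19 (0.920, 1.22, 1.07 and 0.157 CPM) and 0, 6 and 6 counts in Sham_OLE 4, 22 and 23. The log2 change was 2.16 (SE 0.79, edgeR adjusted p = 0.226), and 2.48 without number 19 (SE 0.59, edgeR adjusted p = 0.0264). Icam1 was at 12.5, 13.2, 20.4 and 6.53 CPM in Glucotonic_OLE and 4.08, 7.74 and 11.3 CPM in Sham_OLE, a log2 change of 0.77 (SE 0.40, edgeR adjusted p = 0.352), or 0.99 without number 19 (SE 0.33, edgeR adjusted p = 0.0738). Il1b was at 4.41, 2.95, 4.27 and 1.57 CPM in Glucotonic_OLE 13, 16, 18 and 19 (log2 change 0.33, SE 0.59, edgeR adjusted p = 0.808). Its highest OLETF value, 5.08 CPM, was in Sham_OLE 23, while Sham_OLE 4 and 22, at 1.37 and 1.49 CPM, lay below all glucotonic values. Without Sham_OLE 23 the log2 change was 1.22 (SE 0.59, edgeR adjusted p = 0.433), so its size depended on that sample.

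Without number 19 in both kinds of section, 3 of the 5 fitted members thus passed, and 4 of the 5 lay above all sham samples without overlap. The shares of all 14307 IDs were 6.55% called higher and 16.7% above all sham samples, so a call was common in that reduced comparison. The calls needed both sections of number 19 left out: with only its glucotonic section left out, the edgeR adjusted p was 0.0806 for Ptgs2, 0.0751 for Ccl2 and 0.0789 for Cxcl1. Number 19 was set aside with its values known. Over 13 alternatives in all, the adjusted p (edgeR or DESeq2) ran from 0.0222 to 0.565 for Ptgs2, from 0.0116 to 0.535 for Ccl2 and from 0.0264 to 0.547 for Cxcl1, with each change above 0. For Cxcl1 the range leaves out DESeq2, which gave no adjusted p. The remaining members were below the low-count filter. Cxcl2 had 30 counts over the 4 Glucotonic_OLE samples and 6 over Sham_OLE (0.204 to 0.485 CPM against 0.0416 to 0.144 CPM), and S100a9 had 47 and 15 (0.254 to 0.970 CPM against 0.192 to 0.250 CPM). Both were without overlap between the groups, narrowly for S100a9. Of the tested IDs, which did not include them, 6.02% lay so in that direction, and 0 of the 5 fitted members did. In the lane 4 library of Glucotonic_OLE 13-38 alone, S100a9 was at 0.237 CPM and Cxcl2 at 0.142 CPM. The highest Sham_OLE libraries were at 0.248 and 0.146 CPM, so the single libraries overlapped for both genes. S100a8 had 7 and 4 counts, Il6 had 5 and 0, and Lcn2 had 3 and 0, levels at which no difference was detectable at this depth.

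**Figure D2:**
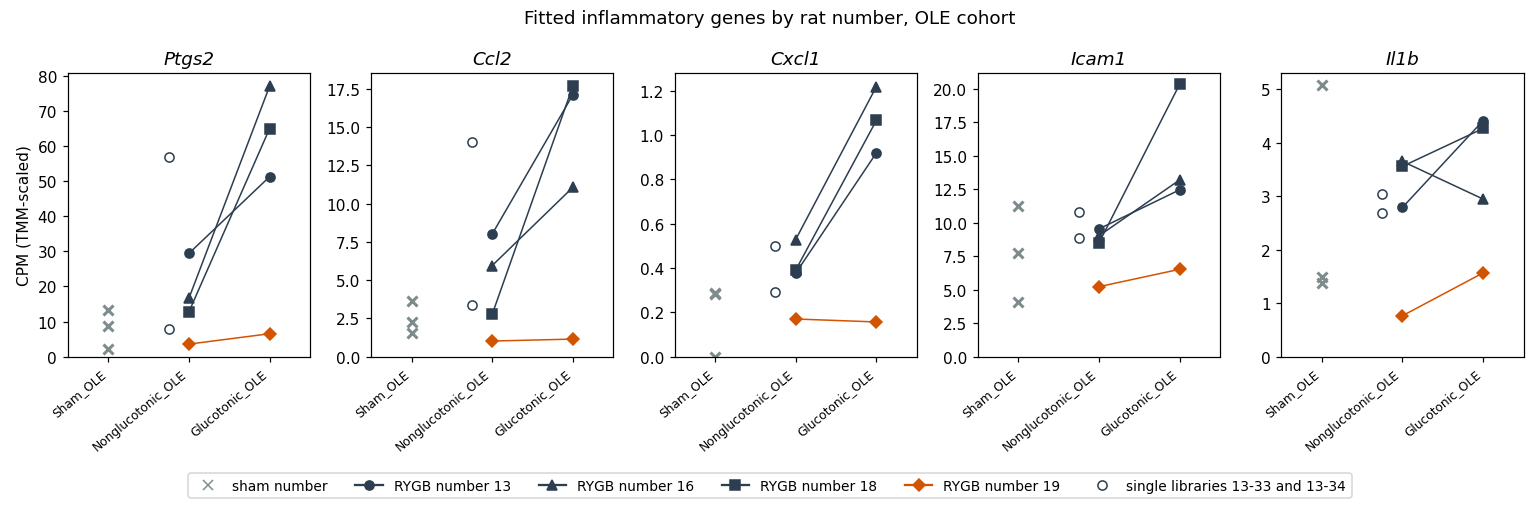
Level in CPM on TMM-scaled libraries (y axis, linear, own scale per gene) of the 5 fitted members in the OLETF cohort, by group (x axis). Crosses are Sham_OLE numbers, filled markers are RYGB numbers with a line joining the sections of a number, and open circles are the single libraries 13-33 and 13-34 that were summed for Nonglucotonic_OLE 13. Number 19 is the lowest of the 4 RYGB numbers in both sections in all 5 panels.

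All Sham_OLE libraries were sequenced in lane 7, and most RYGB libraries were not. Glucotonic_OLE 16 and 18 were in lane 4, and Glucotonic_OLE 19 was the only library of lane 6. Nonglucotonic_OLE 19 was in lane 5. Glucotonic_OLE 13-38 had a library in lane 4 and another in lane 7, which held 56.3 and 49.1 CPM of Ptgs2, 19.2 and 16.1 CPM of Ccl2, 1.19 and 0.743 CPM of Cxcl1 (25 and 20 counts), 10.5 and 14.5 CPM of Icam1 and 4.18 and 4.76 CPM of Il1b. For Ptgs2 and Ccl2 the lane 7 library alone was above the 3 Sham_OLE libraries of that lane, which held 2.19, 8.85 and 13.2 CPM of Ptgs2 and 1.53, 2.29 and 3.58 CPM of Ccl2. For Cxcl1 and Icam1 it was above them too, at most 0.292 and 11.2 CPM, and for Il1b it was below the 5.04 CPM of Sham_OLE 23. With number 13 kept as separate libraries and lane 7 as a term in the fit, the log2 changes were 2.15 for Ptgs2 (SE 1.09, edgeR adjusted p = 0.565), 2.32 for Ccl2 (SE 1.03, edgeR adjusted p = 0.535) and 1.92 for Cxcl1 (SE 0.93, edgeR adjusted p = 0.547). The changes kept their direction and did not pass. The only RYGB libraries of lane 7 were Glucotonic_OLE 13-38 and Nonglucotonic_OLE 13-34, both of number 13, so the lane term depended on that number.

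Non-glucotonic sections were tested against the same Sham_OLE samples. None of the 5 fitted members passed (edgeR, 0% of 14495 IDs called), 0 of the 5 did so at an unadjusted p under 0.05, where 6.46% of all IDs did, and DESeq2, which called 0.186% of all IDs, called 0. Here too DESeq2 gave no adjusted p for Cxcl1. Ptgs2 was at 29.4, 16.6, 12.7 and 3.57 CPM in Nonglucotonic_OLE 13, 16, 18 and 19 (log2 change 0.96, SE 0.84, edgeR adjusted p = 0.843). Ccl2 was at 8.02, 5.96, 2.78 and 1.02 CPM (log2 change 0.86, SE 0.81, edgeR adjusted p = 0.853). In both genes number 13 was the highest and number 19 the lowest. The non-glucotonic values overlapped those of sham. Cxcl1 was at 0.377, 0.528, 0.391 and 0.170 CPM, against 0, 0.289 and 0.285 CPM in Sham_OLE, and only number 19 lay within the sham range (log2 change 0.96, edgeR adjusted p = 0.841). Without number 19 the log2 change was 1.28 for Ptgs2 (SE 0.58, edgeR adjusted p = 0.265), 1.20 for Ccl2 (SE 0.42, edgeR adjusted p = 0.167) and 1.18 for Cxcl1 (SE 0.65, edgeR adjusted p = 0.332). Over 15 alternatives the adjusted p (edgeR or DESeq2) ran from 0.265 for Ptgs2, 0.167 for Ccl2 and 0.332 for Cxcl1 up to 1.00. The range of Cxcl1 leaves out DESeq2.

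The value of Nonglucotonic_OLE 13 was the sum of unlike libraries. Library 13-33, of lane 4, held 56.7 CPM of Ptgs2 and library 13-34, of lane 7, held 7.83 CPM, a 7.25-fold difference, and Ccl2 was 14.01 and 3.36 CPM (4.18-fold). Thus 13-33 was at the level of the glucotonic sections and 13-34 within the sham range. Cxcl1 differed 1.72-fold between them, Icam1 1.22-fold and Il1b 1.13-fold. The labels do not say what the second number marks, and the lanes differ too, so section and lane cannot be told apart here. With only 13-33 for that number, the log2 change against Sham_OLE was 1.45 for Ptgs2 and 1.25 for Ccl2, and with only 13-34 it was 0.32 and 0.40; the edgeR adjusted p was at least 0.760 in each case.

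Between the RYGB sections, Ptgs2, Ccl2, Icam1 and S100a9 were higher in the glucotonic than in the non-glucotonic section of each of the 4 numbers, as were 11.1% of all 14495 tested IDs. S100a9 had few counts and was not fitted. Cxcl1, Il1b, Cxcl2, S100a8 and Il6 were higher in 3 of 4 numbers and Lcn2 in 2, the last 4 on very few counts. The differences did not pass the test. For Ptgs2 the log2 difference was 1.67 (SE 0.76, edgeR adjusted p = 1.00), and with the number as a replicate block it was 1.60 (SE 0.35, adjusted p = 0.199 by edgeR). For Ccl2 it was 1.40 (SE 0.72), and 1.34 (SE 0.36, edgeR adjusted p = 0.234) with the block. Cxcl1 and Icam1 had blocked differences of 1.17 (SE 0.30, edgeR adjusted p = 0.178) and 0.63 (SE 0.16, edgeR adjusted p = 0.162). Without the block, none of the 5 fitted members passed by edgeR, which called 0% of 14495 IDs; 1 of the 5, Ptgs2, did so at an unadjusted p under 0.05, where 2.68% of all IDs did, and DESeq2 called 0 of the 5 and 0.0207% of all IDs. With the block 0 of the 5 members and 0.179% of 14004 IDs passed. The block gave the lowest edgeR adjusted p of Ptgs2 among 17 alternatives, and the highest was 1.00. Without number 19 the unblocked difference of Ptgs2 was 1.71 (SE 0.57, edgeR adjusted p = 0.999).

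**Figure D3:**
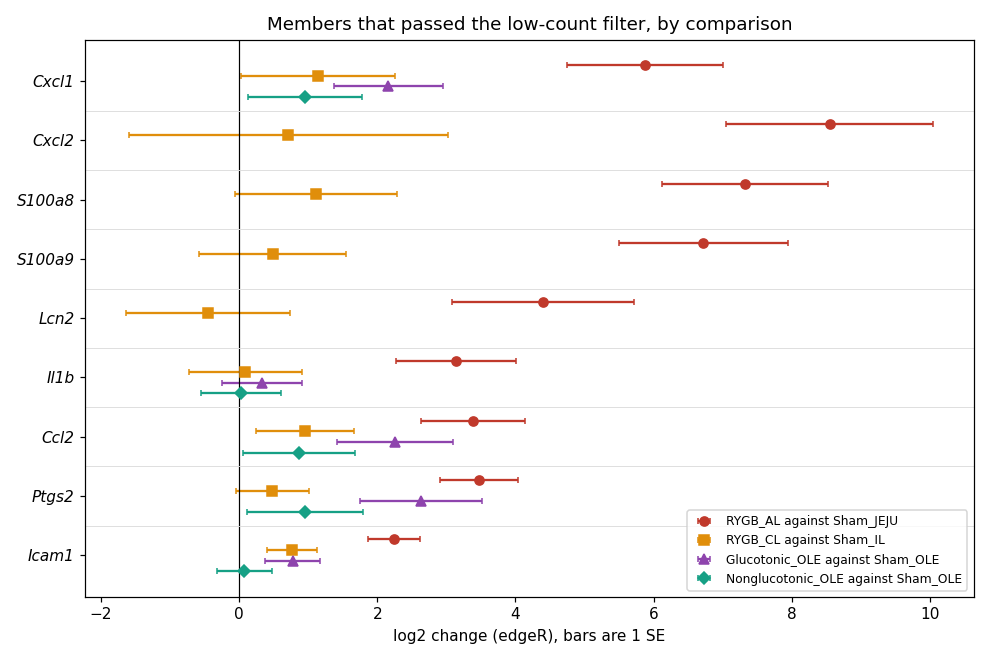
Log2 change of each member that passed the low-count filter (y axis) in 4 comparisons, from edgeR (x axis, bars are 1 SE). Alimentary limb values describe the choice of the set. Members without a glucotonic or non-glucotonic marker were below the filter in the OLETF cohort. Glucotonic changes of Ptgs2 (2.63), Ccl2 (2.26) and Cxcl1 (2.16) lie right of 0, and the common limb bars are wide.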

How the data were processed

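The authors deposited whole-number counts per Ensembl gene ID for 25 libraries, not normalized, per the values. Per the labels' protocols, libraries were stranded and made from rRNA-depleted total RNA. Per the submitters' processing notes, FastQC, STAR and build rn6 were used. Counting tool, annotation and strand setting were not given in the sources used here, so reads that related genes such as Cxcl1 and Cxcl2 might share cannot be resolved.

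Members, gene lists and tests were chosen with earlier results of these data known. The report names the 10 members and, by a fixed rule, the IDs most alike in profile; 0 lines of the reference gene table carry an ID of this kind, so the inflammatory list and the cell type markers could not be applied. Groups and numbers came from sample titles. Libraries of OLETF number 13 were summed within a group. No libraries agreed within sampling noise. Between libraries of a group, chi-square divided by its degrees of freedom was lowest, at 16.3, for Glucotonic_OLE 13-38 and 18, both of lane 4. It was 26.0 for 13-38 and 16, also both of lane 4. Between the lane 4 and lane 7 libraries of Glucotonic_OLE 13-38 it was higher, at 35.6. The part of lane in this was not tested. Beyond these differences, nothing says that samples of a group came from separate animals. The p-values thus measure only how far these samples spread, which may be technical.

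Each cohort was fitted with edgeR 4.0.16 in R 4.3.3: filterByExpr (minimum count 10, minimum total 15), scaling by TMM, the quasi-likelihood test with robust dispersions over all groups of the cohort, and Benjamini-Hochberg adjustment over all IDs, threshold 0.05. Of the members, 9 passed the filter in the first cohort and 5 in the OLETF cohort. CPM use TMM-scaled library sizes, and an SE is the size of the log2 change over the square root of the F statistic. Ratios of summed counts have exact 95% intervals that cover counting error only. In glucotonic and non-glucotonic sections of one OLETF number, deviations from the group mean correlated at r = 0.467 (13), 0.430 (16), 0.341 (18) and 0.811 (19). The highest r with another number was 0.412 (13), 0.221 (16), 0.444 (18) and -0.275 (19). Number 18 was thus closer to another number than to itself, and for number 13 the margin was small. Each r within a number was above 0.1, so the numbers were taken as pairs and the block is given beside the unblocked fit. Alternatives were DESeq2 1.42.0, its size factors in edgeR, no low-count filter, each sample left out, number 13 kept apart with and without lane 7 as a covariate, no number 19, and the replicate block; single libraries for Nonglucotonic_OLE 13 were added after seeing the data. On simulated counts the test found 84% of 4-fold and 29% of 2-fold changes for RYGB_CL against Sham_IL (16146 IDs). Over 14495 IDs it found 85% and 37% for Glucotonic_OLE against Sham_OLE, 92% and 27% for Nonglucotonic_OLE against Sham_OLE, and 92% and 59% between the OLETF sections.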

Additional observations from a re-analysis of the deposited data

Results flagged for a closer look

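S100a9 was at 0.970 CPM in Glucotonic_OLE 18, away from the other samples of its group, of which the nearest was at 0.366 CPM. The value rests on 20 counts. Of 13 groups of 4 values examined (members with at least 10 counts in the highest sample), 1 held such a sample, and chance flags about 1 in 20 groups. The cause was not tested.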

How the results depend on the processing

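The number of IDs called moved more than the members' directions. By DESeq2 it was 2029 for RYGB_AL against Sham_JEJU (edgeR 1237), 93 for RYGB_CL against Sham_IL (0), 523 for Glucotonic_OLE against Sham_OLE (5), 27 for Nonglucotonic_OLE against Sham_OLE (0) and 3 between the OLETF sections (0). Without the low-count filter edgeR called 1 for the common limb and 28 for Glucotonic_OLE. With single samples left out, the alimentary count ran from 484 (without RYGB_AL 15-29) to 1212, with 503 without RYGB_AL 2-3, 557 without Sham_JEJU 14-28 and 792 without Sham_JEJU 8-15. The common limb count ran from 0 to 56 (without RYGB_CL 2-3; 1 without RYGB_CL 15-29). The Glucotonic_OLE count ran from 0 (without 13, 16 or 18 or Sham_OLE 23) to 103 (without Sham_OLE 4), with 8 without Glucotonic_OLE 19 and 2 without Sham_OLE 22. The Nonglucotonic_OLE count ran from 0 to 3 (without Sham_OLE 4; 1 without Nonglucotonic_OLE 19), and the count between sections from 0 to 1 (without Nonglucotonic_OLE 13). Without number 19 the counts against Sham_OLE were 1862 and 157. With number 13 kept apart the Glucotonic_OLE count was 31, and 0 with lane 7 as a covariate. Between sections it was 7 with only library 13-34, and 25 with the replicate block, which changed no call of a member. DESeq2 size factors left each count within 1.5 times.

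Directions turned only for changes that had not passed. With single samples left out, Il1b ran from -0.48 to 1.10, S100a9 from -0.89 to 1.04 and Lcn2 from -1.01 to 0.52 in the common limb, and Il1b from -0.30 to 0.91 and Icam1 from -0.24 to 0.45 in Nonglucotonic_OLE against Sham_OLE, where Il1b was at -0.00052 with only library 13-34. The cause was not tested.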
